A study of Mus musculus with 2 samples.

Results

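The 4 genes described here encode the protein uptake machinery of the visceral endoderm: the receptors cubilin (Cubn) and megalin (Lrp2), the cubilin partner amnionless (Amn), and the clathrin adaptor Dab2. They were taken by gene symbol, as 4 of the 33456 genes listed for each of 2 mouse libraries, and all 4 were found in both. The yolk sac (YS) library came from yolk sacs of C57BL/6 embryos, with equal numbers of E9.5 and E10.5 embryos (days of gestation) pooled into 1 suspension, so the stages cannot be told apart. After freezing and thawing, dead cells and about 70% of the cells carrying the erythroid surface antigen Ter119 were sorted away. The embryoid body (EB) library came from C57BL/6 embryonic stem cells differentiated in serum for 4 days as floating aggregates, labelled as favouring blood- and vessel-forming mesoderm, and likewise frozen, thawed and sorted for live cells. Both were single-cell libraries of the 10x Genomics Chromium system, which counts unique molecular identifiers (UMIs), 1 per captured RNA molecule.

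The visceral endoderm is the outer epithelium of the yolk sac, facing the maternal fluid, and it takes up maternal proteins, lipoproteins and vitamins before the placenta works. Cubilin has no membrane-spanning part. Amnionless anchors it and carries it to the apical membrane, where the pair binds the vitamin B12 carrier, apolipoprotein A-I, albumin and transferrin. Megalin, a giant member of the LDL receptor family, binds retinol-binding protein, vitamin carriers and lipoproteins and assists cubilin uptake. Dab2 binds the tails of LDL receptor family members and links them to clathrin, and it is also known from macrophages and endothelium.

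In GENCODE M21 (GRCm38) all 4 are protein-coding genes. Amn (ENSMUSG00000021278) lies on the plus strand at chr12:111271095-111276426, with at most 12 exons in a transcript. Cubn (ENSMUSG00000026726) lies on the minus strand at chr2:13276338-13491813 with up to 67 exons, and Lrp2 (ENSMUSG00000027070) on the minus strand at chr2:69424340-69586065 with up to 79. Dab2 (ENSMUSG00000022150) lies on the plus strand at chr15:6299788-6440712 with up to 15 exons. Genes on the opposite strand share 368 exon bases with Cubn (Gm13270) and 211 with Dab2 (Gm18888, a processed pseudogene), and Gm13270 had 0 UMIs in the cells of both libraries. Whether counting used the strand is not stated.

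The 250 bases before the RefSeq start (GRCm38.p6) of Amn (plus strand, chr12:111270846-111271095) and of Cubn (minus strand, chr2:13491877-13492126) are shown because their products form a single receptor complex. They are written 5′ to 3′ along the gene, and capitals mark each CG dinucleotide.
Amn: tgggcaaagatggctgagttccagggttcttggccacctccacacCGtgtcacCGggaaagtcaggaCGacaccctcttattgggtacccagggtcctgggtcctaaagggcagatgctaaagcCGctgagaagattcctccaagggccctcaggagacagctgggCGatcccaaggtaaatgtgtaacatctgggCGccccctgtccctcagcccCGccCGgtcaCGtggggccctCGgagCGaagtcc
Cubn: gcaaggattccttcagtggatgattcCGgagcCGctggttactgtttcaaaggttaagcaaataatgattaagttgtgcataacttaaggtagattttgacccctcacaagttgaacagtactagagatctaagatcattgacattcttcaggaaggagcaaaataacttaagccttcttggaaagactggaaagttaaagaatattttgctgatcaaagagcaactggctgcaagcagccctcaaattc
The Amn window held 11 CG dinucleotides and 61.2% G or C, and the Cubn window 2 CG dinucleotides and 39.6% G or C, beside medians of 6 and 52.4% over 32851 such windows of all RefSeq genes. As many CG dinucleotides as in the Amn window were in 35.6% of all windows, and as few as in the Cubn window in 29.0%. Short letter strings were searched on both strands: GTTAAT from the HNF1 motif, AGATAA from that of the GATA family, TGTTTAC from that of FOXA factors and CAAAGTC from that of HNF4. These were in neither window, nor in that of Lrp2 or before the first of 2 RefSeq starts of Dab2. They are in 6.43%, 9.99%, 3.17% and 3.84% of all windows, and the window before the second Dab2 start had 1 match, to GTTAAT. A match or its lack describes these letters only.

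A barcode counted as a cell with at least 6537 UMIs in YS or 6172 in EB and at most 10% of UMIs from mitochondrial genes. This gave 775 YS cells (median 28461 UMIs) and 1878 EB cells (median 25547 UMIs), and 2 cell barcodes occurred in both libraries. Levels are UMIs summed over the cells of a set per 1000000 UMIs of the same cells (CPM). With 1 library per group nothing could be tested between groups, and no p-values are reported. Each interval is a 95% counting interval (exact Poisson for a level, exact Clopper-Pearson for a share, exact conditional binomial for a ratio) and covers counting error only, not variation between embryos or cultures.

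YS endoderm cells were those with at least 1000 CPM of Ttr, the transthyretin gene, which visceral endoderm expresses strongly. The gate held 30 of the 775 YS cells and 0 of the 1878 EB cells, where 3 cells of the total allow a share of up to 0.160%. Inside it the lowest cells had 1172, 2452 and 8826 CPM of Ttr and the highest 32204, and the nearest cell outside had 437. The label was checked against the other markers of visceral endoderm, and all 15 had UMIs, with a summed level of 48202 CPM in gate cells (12932 to 73829 per cell) and 41.1 CPM in the other YS cells. Macrophage markers summed to 35.2 CPM in the gate cells (0 to 127 per cell), with 8 of 12 at 0 UMIs, C1qa, C1qb, C1qc and Mrc1 among them.

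In these 30 cells all 4 genes were abundant. Amn had 853 UMIs, a level of 1073 CPM (1002 to 1147), with a UMI in 28 cells and a range per cell of 0 to 2427 CPM around a median of 990. Cubn had 539 UMIs, 678 CPM (622 to 738), also with a UMI in 28 cells, and 0 to 1328 CPM per cell around a median of 642. The cells without Amn and the cells without Cubn were the same 2. Lrp2 had 121 UMIs, 152 CPM (126 to 182), with a UMI in 27 cells and 0 to 381 CPM per cell around a median of 113. Dab2 had 537 UMIs, 675 CPM (619 to 735), and was the member seen in every gate cell, at 228 to 1754 CPM around a median of 663.

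All 4 were more than 2-fold higher in YS endoderm cells than in the 745 other YS cells, where 19.7% of 13469 genes with at least 10 UMIs were. Among the 9222 genes with at least 100 UMIs, 14.8% were. Amn was at 1073 CPM in endoderm cells and 0.60 CPM (14 UMIs in 13 cells) in the other YS cells, a 1792-fold difference (1062 to 3292). Cubn was at 678 CPM in endoderm cells and 0.51 CPM (12 UMIs in 12 cells) in the others, 1321-fold higher (750 to 2573). Of all YS cells, the gate held 853 of 867 Amn UMIs and 539 of 551 Cubn UMIs. For Lrp2 the endoderm level of 152 CPM stood against 3.29 CPM (77 UMIs in 57 cells), 46.2-fold (34.5 to 62.3). For Dab2 it was 675 CPM in endoderm against 56.5 CPM (1321 UMIs in 260 cells), 11.96-fold (10.8 to 13.2), and most Dab2 UMIs of the library lay outside endoderm.

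**Figure D1:**
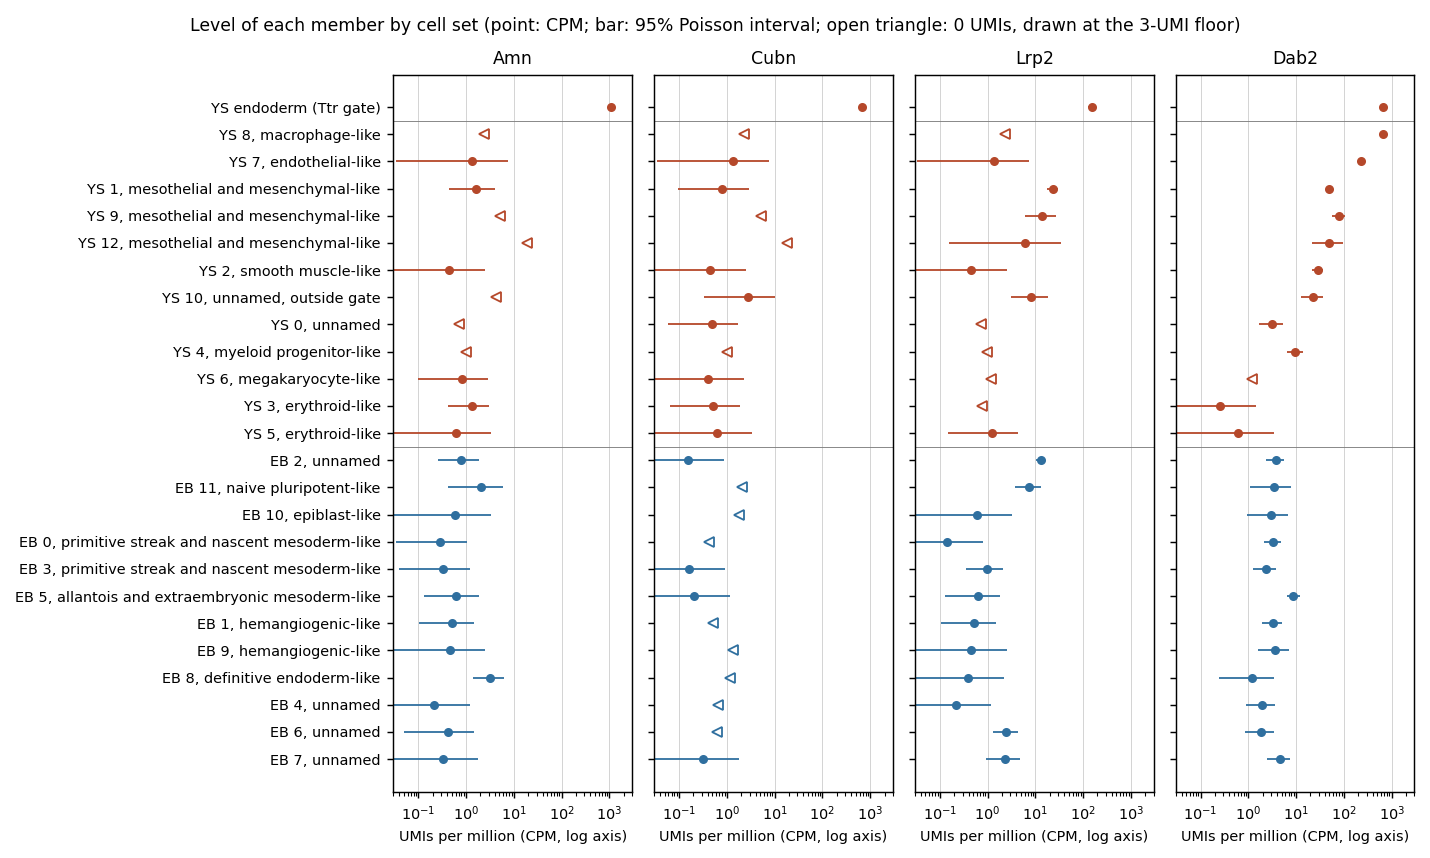
Level of Amn, Cubn, Lrp2 and Dab2 (CPM, log axis) in YS endoderm, the other YS clusters (red) and the EB clusters (blue). Points are summed levels with 95% Poisson intervals, and open triangles stand at the floor of 3 UMIs where no UMI was seen. Amn and Cubn stand high in YS endoderm alone, and Dab2 also in macrophage-like (653 CPM) and endothelial-like (233 CPM) cells. Outside endoderm Lrp2 is at lower levels, highest in YS mesothelial and mesenchymal-like clusters 1 (23.1 CPM) and 9 (13.8 CPM) and in EB cluster 2 (12.9 CPM).

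Free RNA in the droplets was low against these levels. In YS barcodes ranked after the first 10000 and up to 50000 by total, taken as empty, Amn was at 19.8 CPM (14.3 to 26.7), Cubn at 15.7 (10.9 to 21.9), Lrp2 at 3.23 (1.30 to 6.65) and Dab2 at 81.6 (70.0 to 94.5). At the mean of 54.2 UMIs per empty droplet this free RNA would give a UMI of Amn in 0.107% of cells, of Cubn in 0.0850%, of Lrp2 in 0.0175% and of Dab2 in 0.442%. YS erythroid-like cells, which should lack Dab2, had a Dab2 UMI in 1.09% of cluster 3 (median 39379 UMIs per cell) and 1.64% of cluster 5 (median 26941). Amn was seen in 1.74% of YS cells outside the gate and Cubn in 1.61%, single UMIs in nearly every case.

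The 4 RNAs were usually caught together in the same endoderm cell. All 4 had a UMI in 26 of 30 gate cells (86.7%, 69.3 to 96.2), against 0 of the 745 other YS cells, which allows a share of up to 0.403%. With at least 2 UMIs required of each, 22 gate cells still had all 4, and with every cell thinned to 6000 UMIs 15 did. These 22 and 15 were also all the gate cells with Lrp2 at those settings, so both counts restate Lrp2 detection. Each member was seen in at least 27 of the 30 gate cells. The 26 therefore does not show whether the RNAs go together beyond that. No YS cell outside the gate had Amn together with Cubn, and 25 had one or the other. In EB 0 of 1878 cells had all 4 and 0 had Amn with Cubn, among 32 cells with one or the other. Outside the gate Amn and Cubn were each in too few cells for these counts of 0 to show whether they go together.

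Within the gate, levels per cell varied with a Pearson r of 0.464 between Amn and Cubn, 0.586 between Cubn and Lrp2 and 0.290 between Amn and Lrp2 over the 30 cells. Dab2 had r of -0.150 with Amn, 0.169 with Cubn and 0.064 with Lrp2. These cells share 1 library and differ in depth, so the values are descriptions. Over the 28 cells left without the 2 of lowest Ttr, r was 0.280 for Amn with Cubn, 0.162 for Amn with Lrp2 and 0.523 for Cubn with Lrp2, and Dab2 had -0.403 with Amn, -0.013 with Cubn and -0.052 with Lrp2. One of these 28, the gate cell with the most Dab2, was marked as a doublet by Scrublet. Scrublet marked only 2 YS cells, too few to show that it worked, so the mark is uncertain. Over the 27 others Dab2 had r of -0.311 with Amn, 0.283 with Cubn and 0.172 with Lrp2, and Amn with Cubn had 0.201. The signs of Dab2 with Cubn and with Lrp2 changed with that cell.

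**Figure D2:**
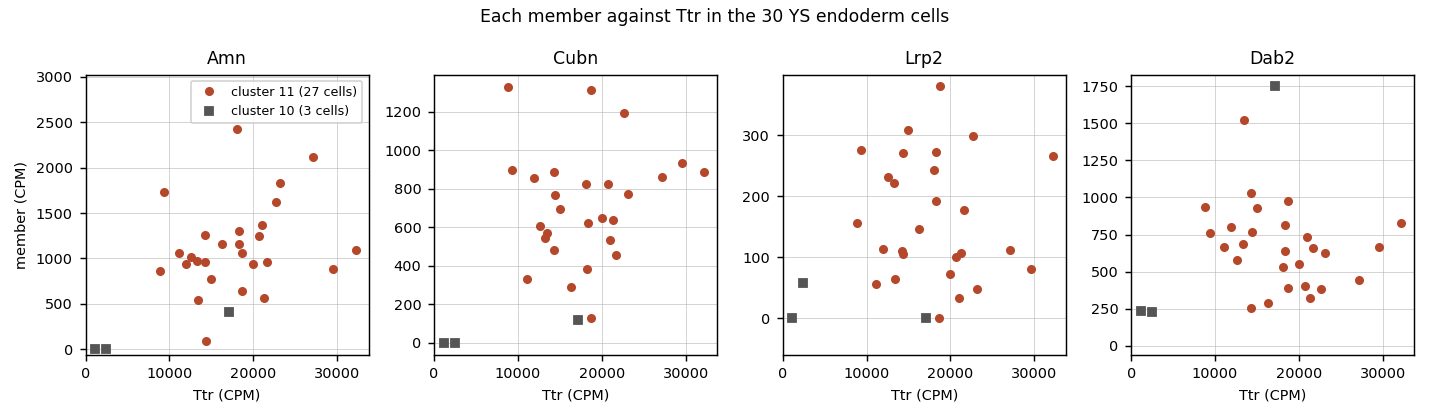
CPM of each member against CPM of Ttr in each of the 30 YS endoderm cells, 27 in cluster 11 (red circles) and 3 in cluster 10 (grey squares). The 2 cells of lowest Ttr have no Amn or Cubn UMI, and the third cluster 10 cell, which Scrublet marked as a doublet, has the highest Dab2 of all, 1754 CPM.

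Of the gate cells 27 made up the whole of YS cluster 11, named visceral endoderm-like from its markers, and 3 fell in cluster 10, an unnamed cluster led by Id2, Crabp2 and Sox11. Clusters were computed without the 4 members. In cluster 10 gate cells Amn had 7 UMIs, 148 CPM (59.3 to 304), against 1132 CPM (1057 to 1210) in cluster 11. Cubn had 2 UMIs there, 42.1 CPM (5.10 to 152), against 718 CPM (659 to 782), and Lrp2 1 UMI, 21.1 CPM (0.53 to 117), against 160.5 CPM (133 to 192). Dab2 was at 780 CPM (549 to 1075) in the cluster 10 gate cells and 669 CPM (611 to 730) in cluster 11, but 30 of its 37 UMIs in the 3 cells came from 1 cell. That cell also held all 9 of their Amn and Cubn UMIs, had 17126 CPM of Ttr, and was the gate cell with the uncertain Scrublet mark of a doublet. Without it the 2 remaining cells had 0 UMIs of Amn and of Cubn and 231 CPM of Dab2 (92.8 to 475), at 234 and 228 CPM the lowest Dab2 of all gate cells. The 3 cells also differed in serum protein genes: Apoc2 and Trf (transferrin) had 0 UMIs in them and 3888 and 1006 CPM in cluster 11. Rbp4, the retinol carrier that megalin binds, was at 14857 CPM in the 3 cells, or 7448 CPM without the marked cell, and 12238 CPM in cluster 11. The epithelial gene Epcam was at 1243 CPM in the 3 cells and 313 CPM in cluster 11.

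The mitochondrial limit removed further Ttr-rich barcodes, and the receptors differed on either side of it. Of 43 YS barcodes past the UMI minimum and the Ttr gate, 13 had over 10% mitochondrial UMIs (10.1% to 26.3%, median 12594 UMIs against 25362 in the 30 cells kept). Cubn was at 1588 CPM in those 13 and 678 CPM in the 30 kept, 2.34-fold higher (2.01 to 2.72), and Lrp2 at 283 and 152 CPM, 1.86-fold higher (1.30 to 2.62). Amn was at 1017 and 1073 CPM, a ratio of 0.95 (0.80 to 1.12), and Dab2 at 758 and 675 CPM, a ratio of 1.12 (0.92 to 1.37). Within the 30 kept cells Cubn also went with the mitochondrial share (r 0.671, Spearman rho 0.679), Lrp2 less so (r 0.389, rho 0.406), and Dab2 had r of 0.252 and rho of 0.453 and Amn 0.260 and 0.241. The part of RNA quality in these values was not tested.

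**Figure D3:**
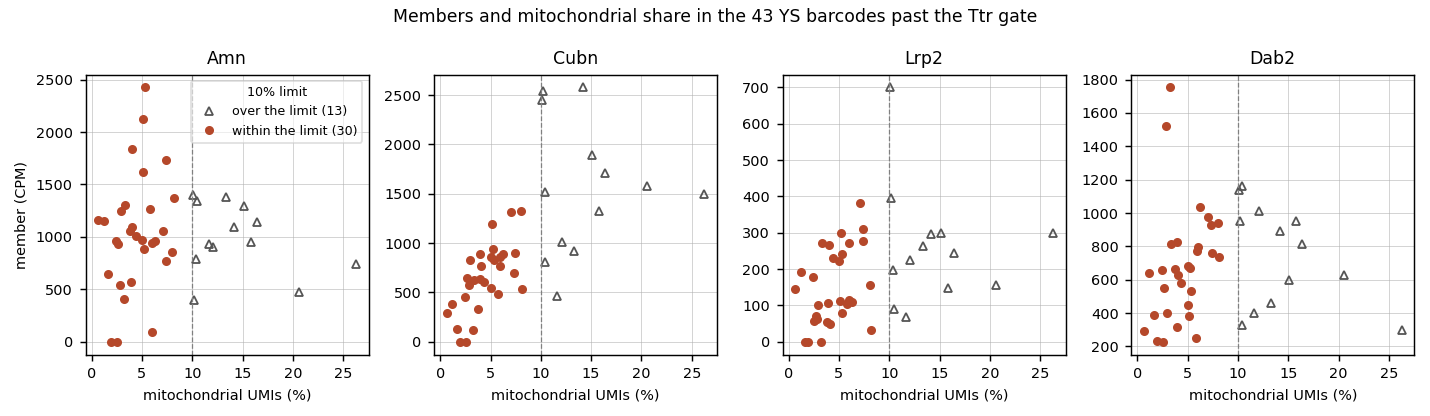
CPM of each member against the percentage of mitochondrial UMIs in the 43 YS barcodes past the UMI minimum and the Ttr gate. The 13 over the 10% limit (triangles) include the highest Cubn and Lrp2 values, while their Amn and Dab2 values lie within the span of the 30 kept cells (circles).

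Dab2 had a second high level in the YS, in macrophages. The 40 macrophage-like cells (cluster 8) had UMIs of all 12 macrophage markers, summing to 7205 CPM, and 64.0 CPM of the 15 visceral endoderm markers, of which Hnf4a, Apob and Epcam were at 0. Dab2 had 847 UMIs there, 653 CPM (610 to 699), with a UMI in 39 of the 40 cells and 0 to 2359 CPM per cell around a median of 671. The 705 other YS cells outside endoderm had 21.5 CPM (474 UMIs), so macrophage-like cells were 30.5-fold higher (27.2 to 34.2), where 11.6% of 13184 genes were at least 2-fold higher. Cells defined by UMIs of at least 4 of 7 macrophage genes, 49 in all, were 24.0-fold higher. Amn, Cubn and Lrp2 had 0 UMIs in all 40 macrophage-like cells, a limit of 2.31 CPM each at 3 UMIs. Dab2 in endoderm was 1.03 times its level in macrophage-like cells (0.93 to 1.15), and the values per cell overlapped over most of their span. Against the macrophage-like cells Amn was at least 463-fold higher in endoderm, Cubn at least 293-fold and Lrp2 at least 65.7-fold. Of 9021 genes 22.5% were at least 2-fold higher. Amn, Cubn and Lrp2 reached the UMIs that a ratio needs only through endoderm, so this share is no measure for them.

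Endothelial-like cells (cluster 7, 48 cells, median 13184 UMIs) had Dab2 in every cell, at 233 CPM (199 to 270) with 173 UMIs. The level was 4.59-fold (3.89 to 5.39) that of the other YS cells outside endoderm, where 22.1% of genes were at least 2-fold higher, and 16.5-fold (13.6 to 19.98) that of the same cells without the macrophage-like ones, at 14.1 CPM, where 22.5% were. The cells ranged up to 926 CPM around a median of 249. Thinned to 6000 UMIs, 30 of 30 endoderm, 34 of 40 macrophage-like and 33 of 48 endothelial-like cells kept a Dab2 UMI. Endoderm was 2.90-fold (2.44 to 3.46) and macrophage-like cells 2.81-fold (2.38 to 3.32) above the endothelial-like level, where 18.4% and 14.3% of genes were at least 2-fold higher. Amn, Cubn and Lrp2 had 1 UMI each in these 48 cells. Macrophage markers summed to 257 CPM in the endothelial-like cells, where 7 of 12 had UMIs and Emr1, C1qa, C1qb, C1qc and Fcgr1 had 0. The part of macrophage RNA in the Dab2 level was not tested.

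The order of Dab2 across YS sets continued with the mesothelial and mesenchymal-like clusters, at 77.6 CPM (56.6 to 104) in cluster 9, 49.9 (41.5 to 59.4) in cluster 1 and 49.4 (21.3 to 97.4) in the 10 cells of cluster 12. Next came smooth muscle-like cells at 28.2 CPM (21.7 to 36.1) and the cluster 10 cells outside the gate at 22.1 (12.7 to 35.9). The intervals overlapped between clusters 1, 9 and 12, and those of the last pair overlapped each other and that of cluster 12. Blood cells were low, with myeloid progenitor-like cells at 9.56 CPM (6.40 to 13.7), the unnamed cluster 0, in which 7 of 8 hematopoietic progenitor markers were enriched, at 3.13 (1.67 to 5.36), erythroid-like clusters at 0.26 and 0.61 on 1 UMI each, and megakaryocyte-like cells with 0 UMIs (limit 1.21 CPM). Among the 80 myeloid progenitor-like cells, 5 cells held 69.0% of the 29 Dab2 UMIs, and 1 of them held 9.

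**Figure D4:**
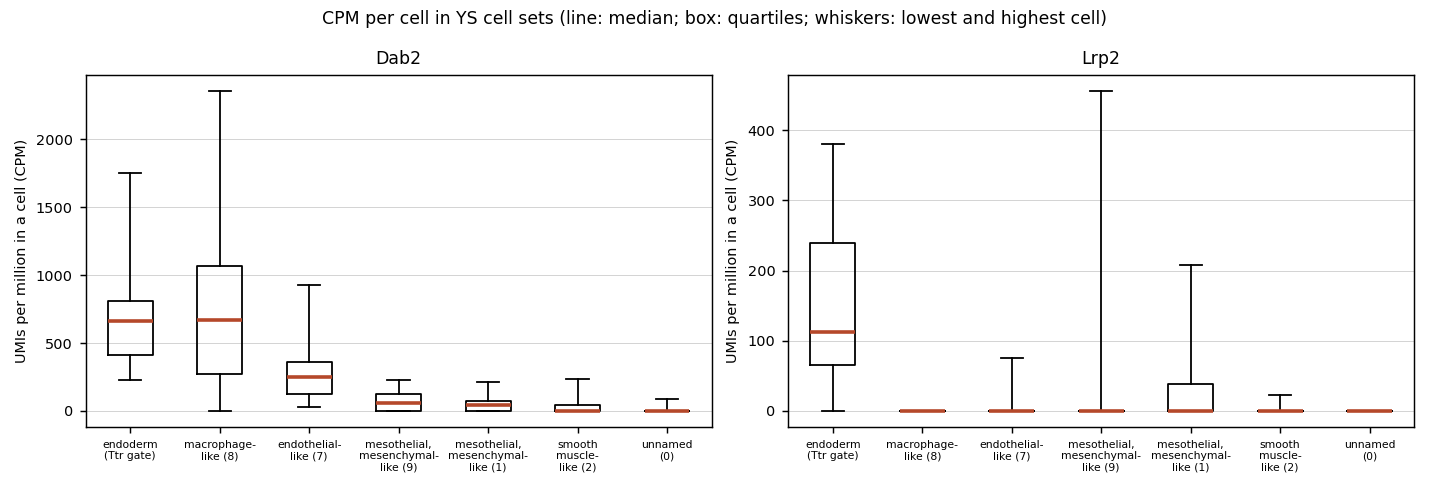
CPM of Dab2 (left) and Lrp2 (right) per cell in YS endoderm and 6 other YS clusters. The line is the median, the box the quartiles and the whiskers the lowest and highest cell. Dab2 medians are alike in endoderm (663) and macrophage-like cells (671), while the Lrp2 median is above 0 in endoderm only.

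Outside endoderm most Lrp2 UMIs of the YS lay in 1 cluster, which also had Dab2. Cluster 1, 100 mesothelial and mesenchymal-like cells led by Smoc2 and Upk3b, held 58 of the 77 Lrp2 UMIs outside the gate. Its level was 23.1 CPM (17.6 to 29.9) against 0.91 CPM in the other 645 cells outside endoderm, 25.4-fold higher (14.9 to 45.2), where 17.6% of genes were at least 2-fold higher. A UMI was seen in 42 of the 100 cells (12 after thinning to 6000 UMIs), the highest cell being at 208 CPM. Of the 42, 32 also had Dab2, which was seen in 67 of all 100 cells of the cluster. Dab2 was at 49.9 CPM in this cluster against 57.3 CPM in the other cells outside endoderm (ratio 0.87, 0.72 to 1.05), whose Dab2 was mostly that of macrophage-like and endothelial-like cells. Without those, 557 cells at 9.34 CPM remained, and the cluster was 5.34-fold higher (4.21 to 6.75), where 19.1% of genes were at least 2-fold higher. Amn had 4 UMIs in 3 of these cells and Cubn 2, and the 15 visceral endoderm markers summed to 53.5 CPM (0 to 802 per cell). Cluster 9, collagen-rich cells of the same name, had 8 Lrp2 UMIs in 6 cells, 13.8 CPM (5.96 to 27.2), 4.56-fold (1.89 to 9.501) above the others, where 21.9% of genes were at least 2-fold higher. Of those 8 UMIs, 3 came from 1 cell. The interval of cluster 9 overlapped that of cluster 1, and the cells it was compared with include cluster 1. Smooth muscle-like cells had 1 Lrp2 UMI.

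In EB cells all 4 genes were low. Amn had 32 UMIs in the 1878 cells, 0.63 CPM (0.43 to 0.89), Cubn 4 UMIs, 0.079 CPM (0.022 to 0.20), Lrp2 130 UMIs, 2.56 CPM (2.14 to 3.05), and Dab2 175 UMIs, 3.45 CPM (2.96 to 4.00). Over all cells YS was higher than EB for all 4, where 21.5% of 15621 genes were at least 2-fold higher. Cubn, with 4 UMIs in EB, reached the UMIs that a ratio needs only through YS, so this share is no measure for Cubn. Amn was at 35.9 CPM in YS and 0.63 CPM in EB, 56.8-fold (39.9 to 83.6), and Cubn at 22.8 and 0.079 CPM, 289-fold (112 to 1063). Lrp2 was at 8.19 CPM in YS and 2.56 CPM in EB, 3.19-fold (2.55 to 4.01), and Dab2 at 76.8 and 3.45 CPM, 22.3-fold (19.1 to 26.1). Without the 30 gate cells the YS to EB ratio was 0.95 for Amn, 6.502 for Cubn, 1.28 for Lrp2 and 16.4 for Dab2. Of these only Dab2 and Cubn stayed 2-fold higher. Cubn then rested on 12 UMIs in YS and 4 in EB, and again reached 10 UMIs only through YS. No intervals were computed for these ratios. The libraries differ in tissue, source and sorting, which cannot be told apart here.

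Lrp2 was uneven among EB states. Cluster 2, 210 cells left unnamed and led by Sfn, Nefl and Tagln with 5 of 8 epiblast markers enriched, held 83 of the 130 UMIs. Its level was 12.9 CPM (10.3 to 16.0) against 1.06 CPM in the other EB cells, 12.2-fold (8.42 to 17.8), where 7.6% of 14215 genes were at least 2-fold higher. Lrp2 was seen in 62 of the 210 cells (29.5%), in 5.24% after thinning, and at most at 4 UMIs in a cell. Free Lrp2 RNA in EB empty droplets, 2.68 CPM (1.76 to 3.89), would give a UMI in 0.0675% of cells. Naive pluripotent-like cells (cluster 11, 59 cells) came next with 11 UMIs, 7.44 CPM (3.71 to 13.3), 3.08-fold (1.496 to 5.71) above the rest, where 12.2% of genes were at least 2-fold higher. The intervals of these clusters overlapped. All other EB clusters lay between 0.14 and 2.48 CPM, the mesoderm clusters among them: primitive streak and nascent mesoderm-like cells had 1 UMI in cluster 0 and 6 in cluster 3. Of the 62 Lrp2-positive cells of cluster 2, 8 had a Dab2 UMI, where 23 of all 210 cells of the cluster had one. In the other Lrp2-positive cells a Dab2 UMI was not detected at this depth.

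Dab2 in EB was highest in allantois and extraembryonic mesoderm-like cells (cluster 5), with 42 UMIs in 34 of 175 cells, 8.80 CPM (6.34 to 11.9), 3.04-fold (2.09 to 4.33) above the other EB cells, where 6.55% of genes were at least 2-fold higher. The other EB clusters lay between 1.19 and 4.52 CPM, with overlapping intervals. The neuronal paralog Dab1 had the opposite distribution between the libraries, at 0.41 CPM (0.20 to 0.76) in YS cells and 10.9 CPM (9.96 to 11.8) in EB cells. Dab1 was chosen by hand, and the share of all genes lower in YS is not given here.

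The EB endoderm did not carry the set. Definitive endoderm-like cells (cluster 8, 118 cells) had 8 Amn UMIs in 6 cells, 3.18 CPM (1.37 to 6.26), 6.38-fold (2.48 to 14.7) above the other EB cells, where 8.36% of genes were at least 2-fold higher. They had 0 Cubn UMIs (limit 1.19 CPM), 1 Lrp2 UMI and 3 Dab2 UMIs. Against them YS endoderm was higher for all 4. Amn was 338-fold higher (171 to 785), Cubn at least 569-fold, Lrp2 383-fold (67.5 to 15261) and Dab2 567-fold (193 to 2758). Of 10054 genes 22% were at least 2-fold higher. All 4 members reached the UMIs that a ratio needs only through YS endoderm, so this share is no measure for them. In the definitive endoderm-like cells the 15 visceral endoderm markers summed to 602 CPM, with 13 of 15 seen.

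Among genes that work with the receptors, the ligand, brush border, lysosomal and transcription factor genes that could be compared were mostly higher in YS endoderm than in the other YS cells, and the coat and trafficking genes only in part. Counts and medians here are over genes with at least 10 UMIs in the other YS cells, since a gene that reached 10 UMIs only through endoderm had to be higher there. Among 13184 such genes 17.9% were at least 2-fold higher and 17.3% at least 2-fold lower, and their median was 0.00 on the log2 scale. Of 22 such endocytic adaptors and clathrin coat genes, of 24 listed, 6 were at least 2-fold higher and 2 lower, with a median log2 ratio of 0.59. Myo6, the motor protein that binds Dab2, was at 147 CPM in endoderm and 10.8 CPM in the others, 13.7-fold (10.9 to 17.1), and clathrin heavy chain (Cltc) was 4.34-fold higher (3.67 to 5.09). Gipc1, an adaptor for megalin and Myo6, was lower, at 35.2 against 80.9 CPM (ratio 0.44, 0.29 to 0.63), and Hip1 had 1 UMI in endoderm (ratio 0.22, 0.0055 to 1.24).

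Of 14 trafficking genes, all that were listed, 6 were higher and 2 lower (median 0.62). Lrpap1, the chaperone of the LDL receptor family, was at 493 CPM in endoderm and 72.5 CPM in the others, 6.80-fold (6.08 to 7.60), and Clcn5, the endosomal chloride exchanger, was 7.73-fold higher on 52 UMIs. Rab11fip2, a recycling factor, had 5 UMIs in endoderm (ratio 0.47, 0.15 to 1.10) and Rab38 had 1 (ratio 0.17, 0.0042 to 0.94). Of 16 LDL receptor family and other endocytic receptors, of 18 listed, 6 were higher and 5 lower (median 0.72). The folate receptor Folr1, which reached 10 UMIs only through endoderm, was at 402 CPM in endoderm and 0.26 CPM in the others, 1569-fold (713 to 4307), and the sorting receptor Sorl1 was 34.8-fold higher (18.9 to 64.4). The scavenger receptor Stab2, a gene of sinusoidal endothelium, had 0 UMIs in endoderm and 15.4 CPM in the others, a ratio of at most 0.25, and Sort1 had 2 UMIs (ratio 0.28, 0.034 to 1.03).

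Of 9 ligand genes of cubilin, amnionless and megalin, of 16 listed, 8 were higher and 1 lower (median 6.41). A further 3 reached 10 UMIs only through endoderm, among them Apoa4, at 1583 CPM in endoderm and 0.30 CPM in the others, and Apob, at 900.5 and 0.30 CPM. Clu was 4.67-fold higher (3.46 to 6.20). Lipoprotein lipase (Lpl) had 1 UMI in endoderm and 53.9 CPM in the others, a ratio of 0.023 (0.00059 to 0.13). Of 14 listed brush border genes, 6 had at least 10 UMIs in the other cells and 6 of these were higher (median 3.58), ezrin (Ezr) 6.65-fold (5.84 to 7.56) and Muc13 6.17-fold (4.02 to 9.20). The 3 that reached 10 UMIs only through endoderm included the scaffold protein gene Pdzk1, at 244 CPM in endoderm against 0.17 CPM, and the microvillus cadherin Cdhr2, at 42.8 against 0.043 CPM.

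Of 16 lysosomal genes, all that were listed, 14 were higher and 0 lower (median 2.06), led by the proteases Ctsh, 102-fold (84.5 to 124), and Ctsl, at 2264 CPM against 97.1 CPM, 23.3-fold (21.9 to 24.8). Ctsd was 1.86-fold (1.60 to 2.15) and Lipa 1.78-fold (1.15 to 2.65). Macrophage-like cells shared this: 13 of the 16 were at least 2-fold higher in them than in the other YS cells outside endoderm, beside 11.6% of all genes, and 0 of 6 tested brush border genes were. Of 7 transcription factors of visceral endoderm, of 14 listed, 5 were higher and 0 lower (median 3.18). A further 6 reached 10 UMIs only through endoderm, among them Hnf4a, at 88.0 CPM in endoderm against 0.086 CPM, and Creb3l3, at 143 against 0.34 CPM. Sox17 (ratio 1.86, 0.67 to 4.20) and Gata6 (1.30, 0.73 to 2.13) were within 2-fold. Endothelial-like cells had 15 of 22 tested adaptor and coat genes at least 2-fold higher, beside 22.1% of all genes.

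**Figure D5:**
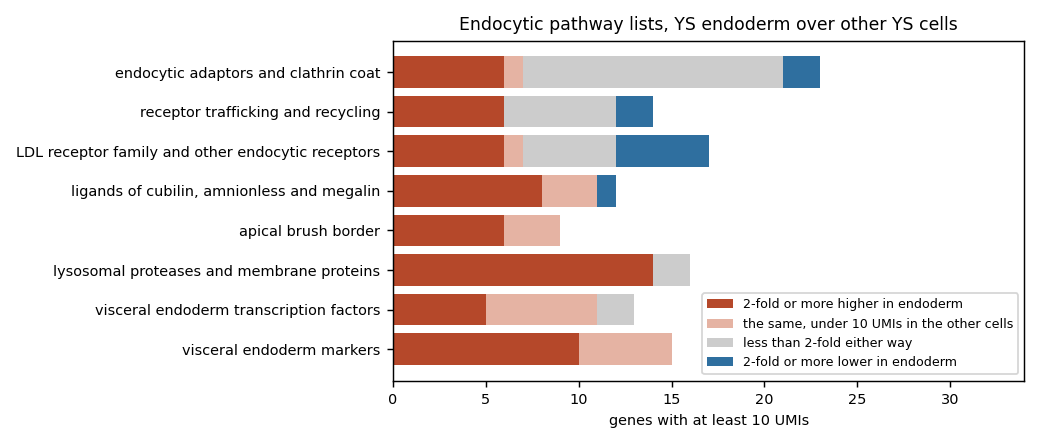
Number of genes with at least 10 UMIs in each list that were at least 2-fold higher, within 2-fold, or at least 2-fold lower in YS endoderm than in the other YS cells, with paler red for genes that reached 10 UMIs only through endoderm. Leaving those aside, 14 of 16 lysosomal genes and 6 of 22 adaptor and coat genes were higher.

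The genes whose levels over the 25 clusters of both libraries were most like each member were found by Pearson's r of log2(CPM + 20) among 11095 genes. For Amn they were Fgb, Maob, Serpinf2, Fga and Apoa4 (r 0.9974 to 0.9992), and for Cubn Fgb, Fga, Apoc3, Slc2a2 and Apoa4 (0.9991 to 0.9998). Such r rest on the visceral endoderm cluster: Amn with Cubn gave 0.999 over 25 clusters and 0.875 over the 24 others, where both were near 0. For Lrp2 they were Palm3, Slc13a4, Apoa1, Pla2g12b and Gstm4 (0.9101 to 0.9244), falling to between 0.380 and 0.660 without that cluster. For Dab2 they were Fcgrt, Maf, Mpp1, Mfsd11 and Ly96 (0.9023 to 0.9413), with 0.870 to 0.945 over the 24 other clusters, and Lrp2 with Dab2 had 0.580 and 0.233. The clusters share their libraries and differ in cell number and depth.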

How the data were processed

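The authors deposited unnormalized UMI counts for each gene and barcode, made against mm10 per the submitters' processing notes. For the counting program and annotation, the sources used here name none, and the tables were not filtered to cells. The YS library held 30294678 UMIs (79.8% in cells) and EB 73915225 (68.6%). The UMI minimum was 10% of a percentile (99) taken over the 3000 largest barcode totals. Of barcodes past it, 26 of 801 in YS and 142 of 2020 in EB failed the mitochondrial limit. Scrublet marked 2 YS and 3 EB cells as doublets, too few to show that it worked, and these were kept, 1 of them a YS endoderm cell.

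Each library was clustered without the 4 members (scanpy 1.11.5, leidenalg 0.10.2, seed 1): counts scaled to 10000 per cell, logs, 2000 variable genes, 30 components, 15 neighbours, resolution 1. A cluster took a list's name with 3 enriched markers and 2 in its 10 leading genes, or 1 there with no other list having one; this rule was written after clusters were seen. Ratios needed 10 UMIs over both groups (for list counts, in the other YS cells alone, a choice made after seeing the data), and a group at 0 was set to 3 counts. The genes named are the 4 members, the 2 highest and 2 lowest ratios with at least 30 UMIs of each list, and the 5 genes most like each member. Outside this rule, markers (Apoc2, Trf, Rbp4 and Epcam among them) were named to describe cell sets, and Dab1 was chosen by hand. Ratio intervals were tried on simulated Poisson counts, the model they assume, which cannot show how they hold where cells vary beyond counting error. The members and lists were chosen with earlier results of these data known.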

Additional observations from a re-analysis of the deposited data

Results flagged for a closer look

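Signals of the members were present in barcodes that the comparisons left out, and each is given because it exceeded what a count of 0 allows. Among YS barcodes past the UMI minimum with over 10% mitochondrial UMIs, the 13 past the Ttr gate had 1017 CPM of Amn, 1588 CPM of Cubn, 283 CPM of Lrp2 and 758 CPM of Dab2. Among YS barcodes of 1000 UMIs up to the minimum, 1 passed the gate, with 5 Dab2 UMIs (4281 CPM). The 103 such barcodes outside the gate had 55 Dab2 UMIs in 28 barcodes, 152 CPM (115 to 198), where YS cells outside the gate had 56.5 CPM. The 142 EB barcodes over the mitochondrial limit had 21 Lrp2 UMIs in 16 barcodes, 18.5 CPM (11.5 to 28.3), 7.23-fold (4.33 to 11.5) above the 2.56 CPM of EB cells, at a median of 7195 UMIs against 25547. The same 142 had 4.41 CPM of Dab2 on 5 UMIs, and 140 EB barcodes of 1000 UMIs up to the minimum had 9.70 CPM on 4. What sets these barcodes apart was not tested.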

How the results depend on the processing

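Over 184 recalculated values 160 stayed within their main counting interval or within 1.5 times their count. Some of the 160 only repeat the main value. A Ttr limit of 500 CPM held the same 30 cells, and the endothelial-like cluster had 48 cells at 233 CPM of Dab2 in every clustering. The summed level of the 4 genes in YS endoderm moved to 2301 CPM with a 5% mitochondrial limit (16 cells) and 2761 CPM with 20%. Dab2 in macrophages was 24.0-fold higher with the marker gate. Without gate cells 2 members, Dab2 and Cubn, were 2-fold higher in YS than in EB, and Amn turned to 0.95. Cubn there rested on 12 UMIs in YS and 4 in EB. Thinned to 6000 UMIs, 15 endoderm cells had all 4 genes. Under the 10 settings tried for YS endoderm the count of members at least 2-fold higher in YS endoderm was 4, with Amn between 1263-fold and 1902-fold, Cubn between 1046-fold and 1606-fold, Lrp2 between 28.4-fold and 53.4-fold and Dab2 between 9.06-fold and 13.4-fold. For YS cluster 1 and EB cluster 2, the cluster sharing the most cells was taken in each of 4 other clusterings. Lrp2 stayed within its interval in each. Those matched to YS cluster 1 (100 cells) had 127, 100, 100 and 100 cells, so most hardly differ from it in size. Those matched to EB cluster 2 (210 cells) had 265, 106, 99 and 124 cells, so some hold only a part of it. Alternatives chosen after seeing the data were as follows. Dab2 in YS cluster 1 turned from a ratio of 0.87 to 5.34 when macrophage-like and endothelial-like cells were left out of the compared cells, and Dab2 in endothelial-like cells moved from 4.59-fold to 16.5-fold without macrophage-like cells. Without the marked doublet the other cluster 10 gate cells had 231 CPM of Dab2. With 10 UMIs required in the other YS cells, 51 list genes were at least 2-fold higher in endoderm, and with 10 UMIs over both groups 65.

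With 30 endoderm cells from 1 library, values per cell rest on few UMIs (at most 11 for Lrp2), a gene with 0 UMIs there may have been at up to 3.77 CPM, and no spread between embryos is known. No paired analysis was possible because each group has 1 library. Samples could not be left out in turn for the same reason.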
